A study of Homo sapiens with 8 samples.

Results

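The difference between the transcriptional response of H9 hESCs to crowding and their response to ETV4 knockdown (KD) was measured for each gene found by its symbol in both deposited count tables. These are 18679 of the 20344 genes in either table, and 17790 of them had enough reads to be tested. H9 is an established human embryonic stem cell line, grown here on Matrigel in mTeSR1 or TeSR-E8 medium. The crowding experiment compared 2 libraries labelled small, from low-density cultures, with 2 labelled crowded, from high-density cultures confined to small drops of Matrigel on the slide. The KD experiment compared 2 libraries labelled Ctrl, from cells with a control hairpin delivered by lentivirus, with 2 labelled ETV4 KD, from cells with a hairpin against ETV4. All 4 groups are one cell line. Which ETV4 hairpin was sequenced, the density of the Ctrl and ETV4 KD cultures, and whether the libraries of a group came from separate cultures are not given in the sources used here. The p-values therefore measure the spread between libraries, which may be technical.

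ETV4 is a transcription factor of the PEA3 group of the ETS family, whose members act downstream of FGF receptors and the ERK kinases. Adherent cells sense the space around them through integrins, focal adhesions and contractile actin, and this tension controls the coactivators YAP and MRTF, which act with the DNA-binding factors TEAD and SRF. Human pluripotent stem cells also depend on FGF and on NODAL or activin signals to keep their state.

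For each gene the response to crowding is the log2 fold change of crowded over small, the response to KD is that of ETV4 KD over Ctrl, and the difference is the first minus the second. A call of a response or a difference needed a log2 value beyond 0.5 in size and an adjusted p under 0.05 (edgeR quasi-likelihood test with Benjamini-Hochberg adjustment, which gave every adjusted p below). Each table was normalized alone, so a constant offset between the tables drops out of the difference. The experiments share no library, and experiment and table cannot be told apart. The libraries held 50359703 to 62410168 counts. All 10 markers of pluripotent stem cells were above 1 FPKM (reads scaled to transcript length and library size) in each group, with summed levels between 3151 and 3919 FPKM over the libraries. Of 49 markers of 8 other cell types, 25 were in both tables and 11 reached 1 FPKM in at least 1 group. The summed neuroectoderm markers, 6 of 8 in the tables, were at 16.9 to 18.3 FPKM in small, 17.5 to 25.0 in crowded, 4.64 to 6.01 in Ctrl and 18.6 to 23.1 in ETV4 KD, nearly all of it OTX2 and HESX1, while PAX6 was not in both tables. The summed mesenchyme markers, 2 of 5 in the tables and nearly all COL1A1, were at 27.5 to 28.2, 20.8 to 21.5, 21.7 to 22.8 and 43.1 to 45.2 FPKM in the same order, while COL3A1, DCN and LUM were not in both tables. The part of other cell types in the differences was not tested.

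ETV4 itself was at 73.2 and 72.6 FPKM in small, 54.2 and 53.9 in crowded, 90.8 and 95.1 in Ctrl and 45.6 and 40.9 in ETV4 KD. The levels were lower in crowded than in small and lower in ETV4 KD than in Ctrl, without overlap. The log2 response was -0.49 ± 0.06 (SE) to crowding, just short of the 0.5 needed for a call, and -1.15 ± 0.06 to KD, where ETV4 fell. The responses differed by 0.67 ± 0.08 (adjusted p = 1.19e-04). The gene lies at chr17:41605212-41656988 (GRCh37, minus strand) and overlaps DHX8 on the other strand. Of the other PEA3 factors, ETV1 had responses of 0.09 and -0.77 with a difference of 0.86 ± 0.13 (adjusted p = 3.24e-04). ETV5 had responses of -0.66 and -0.06 with a difference of -0.60 ± 0.18 (adjusted p = 0.0192), which lost its call without small replicate 1 (-0.58, adjusted p = 0.071), without crowded replicate 1 (-0.41, adjusted p = 0.0714), without Ctrl replicate 2 (-0.47, adjusted p = 0.0735) and without ETV4 KD replicate 1 (-0.49, adjusted p = 0.116).

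Over all tested genes, those with opposite responses outnumbered those that responded alike, though not at the highest expression levels. Of the 17790 tested genes, 514 (2.89%) were called in both responses with opposite signs and 247 (1.39%) with the same sign. Among the opposite genes, 342 (1.92%) rose after crowding and fell after ETV4 KD, and 172 (0.967%) fell after crowding and rose after ETV4 KD. Among the alike genes, 140 (0.787%) rose in both and 107 (0.601%) fell in both. Genes called in both responses were 4.28% of those tested. The compared groups did not overlap in either experiment in 45.3% of all tested genes and in 98.6% to 100% of each class. In all, 9.53% of the tested genes rose and 5.07% fell after crowding, and 6.67% rose and 8.31% fell after ETV4 KD. The 342 genes were 20.2% of those that rose after crowding and 23.1% of those that fell after ETV4 KD. The 172 genes were 19.1% of those that fell after crowding and 14.5% of those that rose after ETV4 KD. The difference itself was called in 4863 genes (27.3%), higher after crowding in 2692 (15.1%) and lower in 2171 (12.2%). Across the tested genes the log2 responses correlated at r = -0.195 (Spearman's rho = -0.207), a description across genes, which are not independent replicates.

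**Figure D1:**
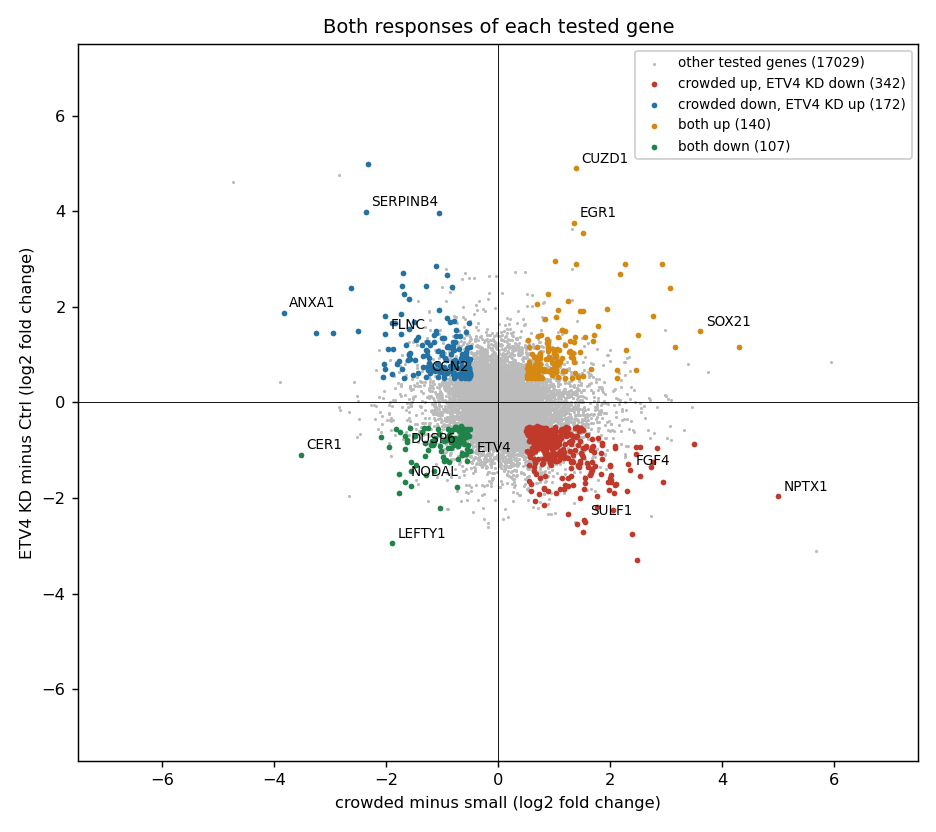
Log2 fold change of crowded over small (x axis) against that of ETV4 KD over Ctrl (y axis), one point per tested gene, coloured by class. The opposite classes (upper left and lower right) hold 172 and 342 genes, the alike classes (upper right and lower left) hold 140 and 107, and grey genes were not called in both responses.

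The number of opposite genes depended on single libraries. All 514 opposite and 247 alike genes kept both signs in each of the 8 fits that left out 1 library. This was nearly fixed in advance, because the compared groups did not overlap in 98.6% to 100% of each class, so it does not show stability. In these fits fewer or more genes passed both thresholds. Genes up in crowded and down in ETV4 KD numbered 188 without crowded replicate 2, 194 without small replicate 1, 206 without Ctrl replicate 1, 223 without small replicate 2 and 517 without ETV4 KD replicate 1. Genes down in crowded and up in ETV4 KD numbered 110 without crowded replicate 2. Of 117 genes named by rule that fell in a class, 72 kept it in all 8 fits, and each gene named by rule and given below as opposite or alike is one of these unless a loss is stated.

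The difference also moved with expression level. Its median was 0.32 in 4114 genes under 1 FPKM, 0.20 in 2820 genes from 1 to 3 FPKM, 0.01 in 4553 genes from 3 to 10 FPKM, -0.08 in 3822 genes from 10 to 30 FPKM and -0.17 in 2481 genes at 30 FPKM or more. The correlation of the responses was below 0 in each of these ranges, between -0.209 and -0.0710. From the lowest range to the highest, genes up in crowded and down in ETV4 KD numbered 100, 127, 89, 21 and 5. Those down and up numbered 27, 39, 50, 34 and 22, and those up in both 27, 32, 43, 23 and 15. Those down in both numbered 16, 31, 32, 16 and 12. Opposite genes did not outnumber alike genes at 30 FPKM or more. From 10 FPKM up, the down and up class was the larger opposite class. With cyclic loess normalization in each table, an alternative chosen after seeing the data, 466 genes were opposite and 247 alike, and 397 of the 466 were among the 514. The part of expression level in the differences was not tested.

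Among the genes that rose after crowding and fell after ETV4 KD, NPTX1, a secreted pentraxin that clusters receptors at synapses, was at 0.386 and 0.233 FPKM in small, 10.5 and 9.81 in crowded, 1.05 and 1.13 in Ctrl and 0.314 and 0.243 in ETV4 KD. The crowded libraries stood far above the small libraries, and the ETV4 KD libraries lay below both Ctrl libraries. Its responses were 5.0 ± 0.17 and -1.96 ± 0.18, and its difference of 6.96 ± 0.25 (adjusted p = 2.46e-08) came from a gene at chr17:78440634-78451643 (GRCh37, minus strand).

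FGF4, a ligand of FGF receptors secreted by pluripotent cells, was at 1.09 and 1.15 FPKM in small, 5.68 and 6.26 in crowded, 0.766 and 0.729 in Ctrl and 0.220 and 0.337 in ETV4 KD. Both crowded libraries were above both small libraries and both ETV4 KD libraries below both Ctrl libraries, with responses of 2.36 ± 0.16 and -1.41 ± 0.20 and a difference of 3.77 ± 0.26 (adjusted p = 1.88e-06). SULF1, an extracellular sulfatase that trims the heparan sulfate chains on which FGFs bind their receptors, was at 1.32 and 1.26 FPKM in small, 3.37 and 4.35 in crowded, 4.01 and 3.50 in Ctrl and 0.894 and 0.489 in ETV4 KD. Its groups did not overlap in either experiment, and its responses of 1.53 ± 0.19 and -2.46 ± 0.20 differed by 4.00 ± 0.28 (adjusted p = 2.95e-06).

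Other genes of this class were PLA2G2A, a secreted phospholipase (2.94 and -1.66 after crowding and after ETV4 KD), RAB26, a GTPase of secretory vesicles (1.65 and -1.48), and APOBEC3G, a cytidine deaminase that restricts retroviruses (1.42 and -1.34). MEIOB, a meiotic DNA-binding protein, had responses of 1.55 and -1.68, IZUMO2, a relative of a sperm fusion protein, of 2.1 and -1.71, and CHP2, a calcineurin-like calcium-binding protein, of 2.01 and -1.53. The semaphorin SEMA5B, an axon guidance protein, was at 3.98 and 4.09 FPKM in small, 7.84 and 7.96 in crowded, 3.63 and 3.90 in Ctrl and 1.80 and 1.49 in ETV4 KD. Its groups did not overlap in either experiment, and its difference was 2.07 ± 0.13 (adjusted p = 1.07e-06). NRXN2, a presynaptic adhesion protein, had responses of 0.72 and -0.95.

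Among the genes that fell after crowding and rose after ETV4 KD, SERPINB4, an inhibitor of serine and cysteine proteases, was at 1.33 and 1.5 FPKM in small, 0.329 and 0.233 in crowded, 0.271 and 0.373 in Ctrl and 4.49 and 5.85 in ETV4 KD. The crowded libraries were below the small libraries and the ETV4 KD libraries above the Ctrl libraries. Its responses were -2.36 ± 0.26 and 3.99 ± 0.25, with a difference of -6.36 ± 0.36 (adjusted p = 5.59e-07). Its near-identical neighbour SERPINB3 had responses of -2.33 and 4.99, and since reads of this pair could have been split between them, their separate values are uncertain.

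Of 13 tested genes of plasminogen activation and the serpins, the difference was lower in 8 and higher in 1, with median log2 responses of -0.75 after crowding and 0.33 after ETV4 KD. Over all tested genes the difference was lower in 12.2% and higher in 15.1%, shares that stand beside each list count below. SERPINB3, SERPINB4 and SERPINB8, the last under 1 FPKM and named after its values were seen (-0.81 and 1.26), were down after crowding and up after ETV4 KD, while the protease inhibitor SERPINB9 (1.37 and 1.37) and the secreted SERPINF1 (0.87 and 0.91) rose in both. The crowding response of SERPINB8 missed the threshold without small replicate 1 (adjusted p = 0.202), small replicate 2 (0.0913) or crowded replicate 2 (0.264). PLAT, the tissue plasminogen activator, had responses of -1.68 and -0.70 and was called down in both, but its KD response missed the threshold without Ctrl replicate 1 (-0.65, adjusted p = 0.0611).

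**Figure D2:**
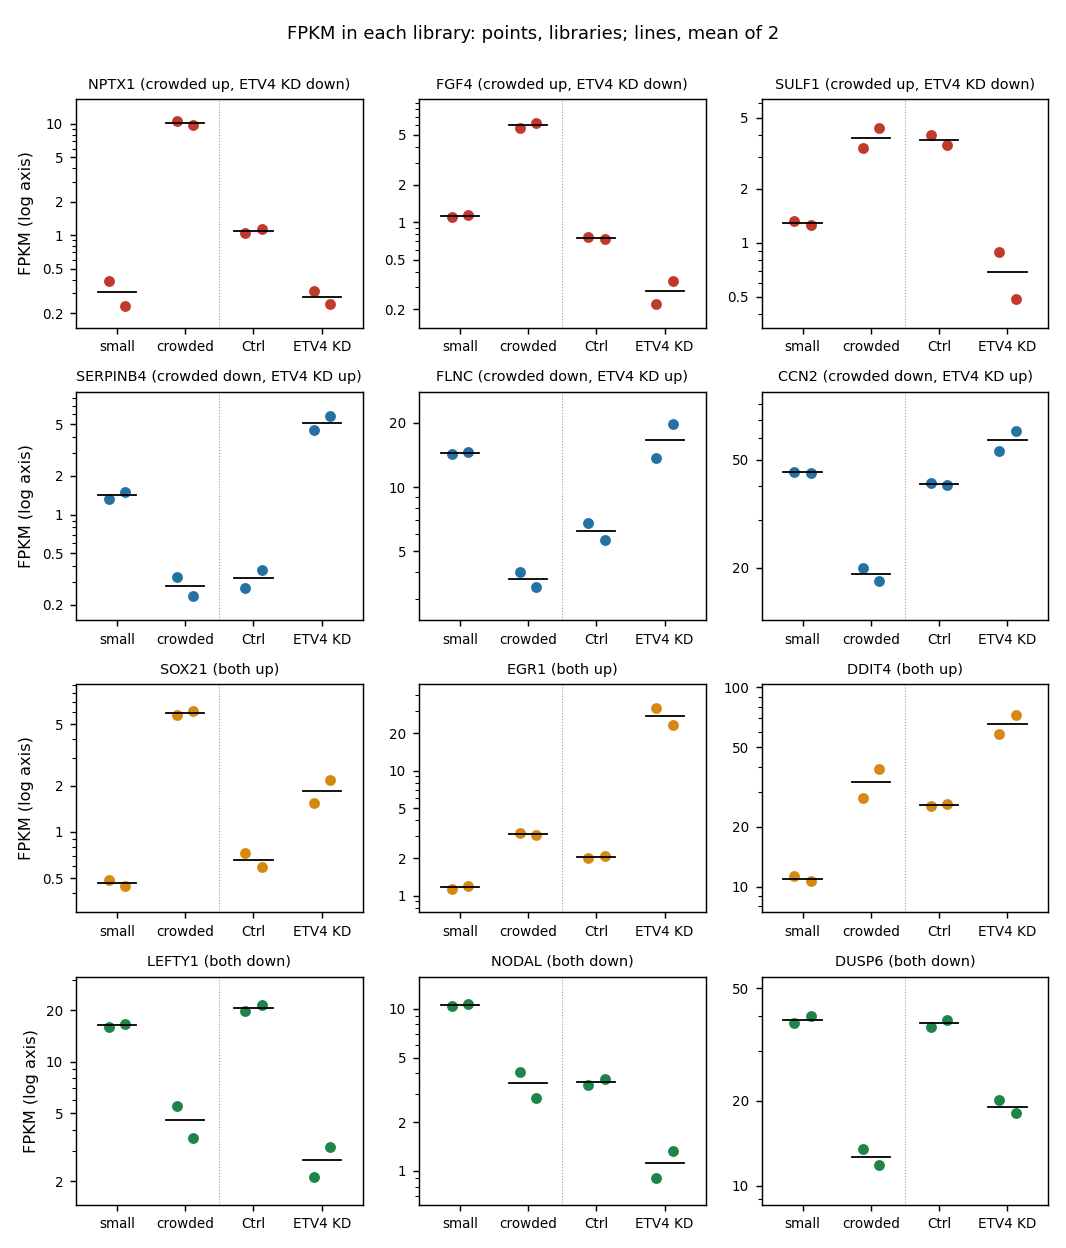
FPKM (log axis) of 12 genes in each of the 8 libraries, with 3 genes for each class in a row. Points are libraries, lines are the mean of 2, and the dotted line divides the experiments. Within each panel the compared groups do not overlap, as in 45.3% of all tested genes.

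YAP and TEAD targets had a median response below 0 to crowding and above 0 to ETV4 KD. Of 21 tested, 13 had a lower difference, with median responses of -0.35 after crowding and 0.36 after ETV4 KD beside 0.00 and 0.00 over all genes. CCN2, a matricellular protein and a widely used YAP readout, was at 45.1 and 44.7 FPKM in small, 20.04 and 17.9 in crowded, 41.2 and 40.5 in Ctrl and 53.8 and 63.9 in ETV4 KD. Both crowded libraries were below both small libraries and both ETV4 KD libraries above both Ctrl libraries, with responses of -1.30 ± 0.10 and 0.54 ± 0.09 and a difference of -1.84 ± 0.13 (adjusted p = 2.81e-06). Without ETV4 KD replicate 2 the KD response of CCN2 was 0.37 and its class was lost. MYOF, a membrane repair protein (-2.03 and 0.70), AJUBA, a LIM protein that inhibits the LATS kinases (-0.79 and 1.09), and FJX1, a secreted Golgi kinase relative (-1.01 and 1.0), were the other opposite genes of the list. CCN1, a relative of CCN2, had responses of -1.32 and 0.37, of which the KD response was short of the size threshold, and was called opposite without ETV4 KD replicate 1 (KD response 0.59). IGFBP3, which binds insulin-like growth factors, was called up in both (0.67 and 0.72) but its crowding response missed the threshold without small replicate 1 (0.51, adjusted p = 0.0748).

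Contractile and cytoskeletal genes had the same order of medians with smaller KD responses. Of 37 tested actin, myosin and SRF target genes, the difference was lower in 24 and higher in 1, and the median responses were -0.48 after crowding and 0.21 after ETV4 KD. FLNC, the muscle-type filamin that crosslinks actin, was the 1 member called in both responses, at 14.3 and 14.7 FPKM in small, 4.00 and 3.38 in crowded, 6.79 and 5.63 in Ctrl and 13.7 and 19.7 in ETV4 KD. Its groups did not overlap in either experiment, and its responses of -2.03 ± 0.19 and 1.43 ± 0.19 differed by -3.46 ± 0.27 (adjusted p = 9.02e-05). TAGLN, an actin-binding protein of smooth muscle, had responses of -2.49 and -0.35 (difference -2.13 ± 0.26, adjusted p = 5.72e-04), and CALD1, which regulates actomyosin, of -1.85 and 0.06 (difference -1.90 ± 0.10, adjusted p = 4.85e-07). ACTC1 of this list was called opposite only in some of the alternative fits, such as limma-trend (-1.78 and 0.58).

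Of 26 focal adhesion proteins, the difference was lower in 12 and higher in 3, with median responses of -0.38 after crowding and -0.02 after ETV4 KD. TES, a LIM protein of focal adhesions, was opposite at -0.67 and 0.74. NEDD9, a docking protein of integrin signalling, had responses of -1.57 and -0.03. Of 17 intermediate filament genes, 10 were lower and 1 higher, with medians of -0.40 after crowding and 0.28 after ETV4 KD. LMNA, which codes for the nuclear lamins A and C, was at 20.6 and 22.7 FPKM in small, 13.9 and 12.6 in crowded, 17.1 and 13.9 in Ctrl and 27.7 and 26.4 in ETV4 KD and had responses of -0.79 ± 0.09 and 0.79 ± 0.09. VIM, the filament protein of mesenchymal and pluripotent cells, had responses of -1.07 and 0.53, and its KD response was 0.49 without Ctrl replicate 1 and 0.37 without ETV4 KD replicate 2, where its class was lost.

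The 250 bases before the start of CCN2 and FLNC are shown because both genes had opposite responses and belong to the YAP and SRF lists. They are read 5′ to 3′ on the gene's strand from GRCh37, at chr6:132272513-132272762 (minus strand) and chr7:128470210-128470459 (plus strand). Capitals mark the TEAD letters GGAATG, which read CATTCC on the opposite strand, the TATA letters TATAAA and the EGR letters GCGNGGGCG, each searched on both strands.
CCN2: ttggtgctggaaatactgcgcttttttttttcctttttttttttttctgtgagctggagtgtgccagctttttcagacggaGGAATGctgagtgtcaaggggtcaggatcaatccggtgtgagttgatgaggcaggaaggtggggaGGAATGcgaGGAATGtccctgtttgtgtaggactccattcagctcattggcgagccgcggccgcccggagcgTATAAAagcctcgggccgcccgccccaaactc
FLNC: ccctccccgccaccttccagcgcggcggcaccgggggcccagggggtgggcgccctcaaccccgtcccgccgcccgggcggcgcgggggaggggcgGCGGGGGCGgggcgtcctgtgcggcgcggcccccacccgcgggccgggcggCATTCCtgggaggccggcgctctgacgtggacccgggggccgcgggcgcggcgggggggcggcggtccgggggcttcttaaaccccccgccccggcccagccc
CCN2 held the TEAD letters at 3 places and FLNC at 1. CArG boxes, the letters SRF binds, were searched as well and stood in neither window. Such a box did stand in the windows of TAGLN and ACTC1, which are also of the actin, myosin and SRF list. The TEAD letters stood in 8.89% of the 16293 tested promoters that could be placed, in 11.7% of 162 in the class down in crowded and up in ETV4 KD, in 7.12% of 323 in the class with the reverse, in 11.9% of 135 in the class up in both and in 12.6% of 103 in the class down in both. The ETS letters CCGGAAG stood in 13.6% of all tested promoters, in 4.02% of those up in crowded and down in ETV4 KD and in 10.5% of those down and up, beside 2.96% of those up in both and 5.83% of those down in both. These shares are descriptions of letters and not of binding.

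Matrix genes went both ways. SPP1, the secreted osteopontin, was at 41.0 and 42.6 FPKM in small, 11.5 and 9.50 in crowded, 20.3 and 19.6 in Ctrl and 30.8 and 38.6 in ETV4 KD, and its responses of -2.05 ± 0.12 and 0.80 ± 0.12 were opposite. THBS1, the adhesive glycoprotein thrombospondin 1, was opposite at -1.22 and 0.78 (difference -2.0 ± 0.15, adjusted p = 3.16e-06). FBN2, a fibrillin of elastic microfibrils, fell in both (-0.91 and -0.78). Of 28 matrix glycoproteins, 10 were higher and 4 lower in the difference, with medians of 0.02 after crowding and -0.12 after ETV4 KD. Of 40 collagens and laminins, 14 were higher and 9 lower in the difference, with medians of -0.03 after crowding and -0.20 after ETV4 KD. Metalloproteinases and TIMPs divided as well, with 8 higher and 10 lower of 27, and ADAM19, a membrane protease, fell in both (-1.26 and -1.0).

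Among the genes that fell in both experiments, NODAL, the TGF-beta family ligand of pluripotent cells, was at 10.4 and 10.7 FPKM in small, 4.09 and 2.83 in crowded, 3.40 and 3.68 in Ctrl and 0.909 and 1.32 in ETV4 KD. Both responses were below 0 without overlap of groups, -1.66 ± 0.18 and -1.66 ± 0.20, and the 95% interval of their difference, -0.64 to 0.63, was too wide to call them alike in size. LEFTY1, a secreted NODAL inhibitor, was at 15.9 and 16.7 FPKM in small, 5.54 and 3.57 in crowded, 19.8 and 21.4 in Ctrl and 2.13 and 3.18 in ETV4 KD. It fell in both, by more after ETV4 KD, with responses of -1.90 ± 0.20 and -2.94 ± 0.22 and a difference of 1.05 ± 0.29 (adjusted p = 0.0164). LEFTY2, its near-identical neighbour on chromosome 1, had responses of -1.78 and -1.89, and the reads of this pair could have been split between them. CER1, another secreted inhibitor, had responses of -3.53 and -1.09, but its KD response missed the threshold without small replicate 1 (adjusted p = 0.0511), small replicate 2 (0.0510), Ctrl replicate 2 (0.166) or ETV4 KD replicate 1 (0.110). FST, which binds activin, rose in both (1.04 and 0.79). Of 21 genes of the NODAL pathway, 4 fell in both, 1 rose in both and 1 was opposite (INHBA, a subunit of activin, at -1.11 and 2.85, under 1 FPKM and named after its values were seen), and the difference was higher in 6 and lower in 4. The crowding response of INHBA missed the threshold without crowded replicate 2 (adjusted p = 0.0552).

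ERK feedback genes were mixed. DUSP6, the phosphatase of ERK that its own activity induces, was at 37.7 and 39.7 FPKM in small, 13.5 and 11.8 in crowded, 36.6 and 38.5 in Ctrl and 20.1 and 18.0 in ETV4 KD. It fell in both experiments, more after crowding, with responses of -1.67 ± 0.08 and -0.97 ± 0.08 and a difference of -0.70 ± 0.11 (adjusted p = 4.10e-04). SPRY4, an inhibitor of receptor tyrosine kinase signalling, fell alike (-0.78 and -0.77), and its difference lay within -0.31 to 0.29. PHLDA1, a pleckstrin-domain protein induced by growth factors, was opposite at -0.69 and 1.38, and SPSB1, which recruits a ubiquitin ligase, was opposite the other way at 0.88 and -0.72. Of 18 genes of the list, 3 fell in both, 1 was opposite in each direction, and the difference was higher in 2 and lower in 6. ETS1, the founding ETS factor, fell in both (-0.68 and -0.77). NTS, the precursor of neurotensin (-1.77 and -1.5), CCDC80, a matrix protein (-1.30 and -1.52), MT1H, a metallothionein (-1.14 and -1.44), SEMA3A, a repulsive axon guidance cue (-1.04 and -0.90), and AK4, a mitochondrial adenylate kinase (-0.58 and -0.72), also fell in both.

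Among the genes that rose in both experiments, SOX21, a SOX factor of the neural lineage, was at 0.487 and 0.446 FPKM in small, 5.75 and 6.13 in crowded, 0.735 and 0.589 in Ctrl and 1.54 and 2.18 in ETV4 KD. It rose more after crowding, with responses of 3.61 ± 0.20 and 1.49 ± 0.19 and a difference of 2.12 ± 0.28 (adjusted p = 1.39e-04). DDIT4, an inhibitor of mTORC1 signalling, was at 11.3 and 10.6 FPKM in small, 27.9 and 39.0 in crowded, 25.3 and 25.8 in Ctrl and 58.7 and 72.4 in ETV4 KD. Its responses of 1.55 ± 0.15 and 1.37 ± 0.15 had a difference whose 95% interval was -0.28 to 0.65. CRABP2, which carries retinoic acid to the nucleus, rose alike (0.91 and 0.95, interval -0.25 to 0.17), as did SERPINB9 (interval -0.39 to 0.41). ECEL1P1, a pseudogene (2.92 and 2.89), NPAS1, a basic helix-loop-helix factor of neurons (0.88 and 1.14), and FGF11, an intracellular FGF relative (0.90 and 0.66), rose in both. AXIN2, a WNT target and scaffold, rose in both (1.18 and 0.65), but its difference of 0.53 lost its call without small replicate 2 (0.48, adjusted p = 0.0246) and without crowded replicate 1 (0.46, adjusted p = 0.0159).

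Among the 247 alike genes, 47 differed in size, 28 of those up and 19 of those down, and in 61 the 95% interval of the difference lay within 0.5 of 0. EGR1, a zinc-finger factor that growth factors and stress induce within minutes, was at 1.13 and 1.2 FPKM in small, 3.18 and 3.04 in crowded, 2.01 and 2.08 in Ctrl and 31.9 and 23.3 in ETV4 KD. It rose in both, by far more after ETV4 KD, with responses of 1.36 ± 0.13 and 3.76 ± 0.12 and a difference of -2.40 ± 0.18 (adjusted p = 3.07e-06). DUSP5, a nuclear ERK phosphatase, was at 13.2 and 12.3 FPKM in small, 7.87 and 7.75 in crowded, 18.0 and 17.9 in Ctrl and 12.2 and 12.8 in ETV4 KD. It fell in both (-0.76 and -0.52), though its KD response was -0.46 without ETV4 KD replicate 1 and its class was lost there. The 250 bases before the start of these genes are shown because the genes moved in opposite directions while both windows hold 2 CArG boxes, the letters SRF binds. They are at chr5:137800918-137801167 and chr10:112257415-112257664 (GRCh37, both plus strand), with CArG boxes and EGR letters in capitals.
EGR1: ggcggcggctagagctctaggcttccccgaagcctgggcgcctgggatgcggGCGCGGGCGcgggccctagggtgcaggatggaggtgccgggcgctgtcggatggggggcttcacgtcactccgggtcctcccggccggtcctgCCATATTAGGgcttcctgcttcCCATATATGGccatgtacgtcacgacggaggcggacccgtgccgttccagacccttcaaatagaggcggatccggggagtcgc
DUSP5: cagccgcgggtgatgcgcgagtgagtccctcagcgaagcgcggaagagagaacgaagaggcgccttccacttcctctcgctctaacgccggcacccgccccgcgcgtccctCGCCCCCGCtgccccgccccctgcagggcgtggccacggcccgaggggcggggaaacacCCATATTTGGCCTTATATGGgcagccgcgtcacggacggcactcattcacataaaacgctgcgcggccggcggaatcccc
In DUSP5 the 2 CArG boxes stand directly side by side. CArG boxes stood in 1.04% of all tested promoters, and EGR letters in 14.6% of all. CArG boxes stood in 2.22% of those up in both and 2.91% of those down in both. They stood in 1.24% of those up in crowded and down in ETV4 KD and 0.617% of those down and up, few promoters in each class. By class, EGR letters stood in 21.5% of those up in both, 19.5% of those up in crowded and down in ETV4 KD, 13.6% of those down and up, and 12.6% of those down in both.

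**Figure D3:**
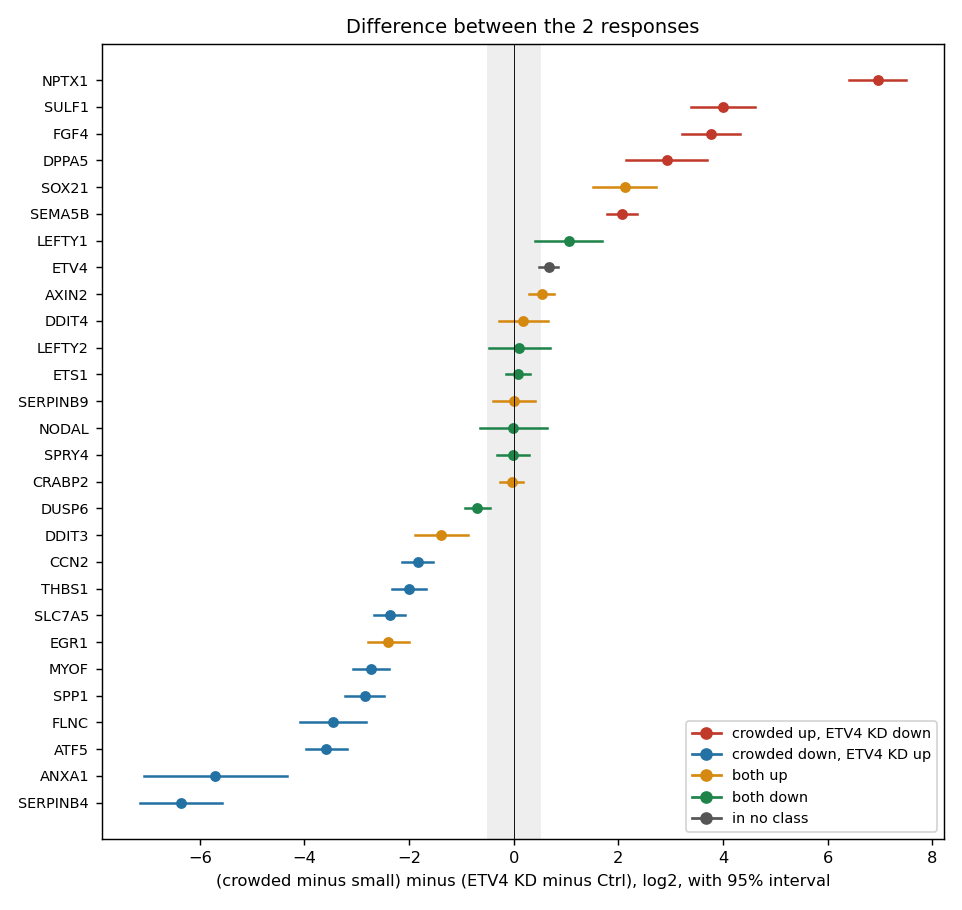
Difference between the responses, (crowded minus small) minus (ETV4 KD minus Ctrl) in log2, with its 95% interval, for 28 genes, coloured by class. The genes were picked by hand. Opposite genes such as NPTX1 and SERPINB4 lie away from 0, which the class rule sets in advance. Of the alike genes, NODAL, SPRY4 and CRABP2 lie near 0, where the grey band marks 0.5 to either side. EGR1, DDIT3 and SOX21 rose in both but by unequal amounts.

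Immediate-early genes, ATF4 targets and p53 targets had a higher median response to ETV4 KD than to crowding, and hypoxia-induced genes a lower one. Of 18 immediate-early genes, 10 had a lower difference, with medians of -0.09 after crowding and 0.73 after ETV4 KD. FOSL1, an AP-1 subunit, was at 5.05 and 4.89 FPKM in small, 2.75 and 3.37 in crowded, 4.10 and 4.17 in Ctrl and 9.41 and 12.1 in ETV4 KD and was opposite at -0.76 and 1.4. Of 26 ATF4 targets and ER chaperones, 15 had a lower difference, with medians of -0.10 after crowding and 0.69 after ETV4 KD. ATF5, a factor of the amino acid and mitochondrial stress response, was at 24.8 and 24.6 FPKM in small, 12.98 and 14.2 in crowded, 11.01 and 9.87 in Ctrl and 56.6 and 74.4 in ETV4 KD. Its responses of -0.92 ± 0.12 and 2.66 ± 0.13 were opposite, as were those of SLC7A5 (-1.48 and 0.89) and SLC3A2 (-0.85 and 0.70), the chains of one amino acid transporter. DDIT3, the stress factor CHOP, rose in both (0.88 and 2.26) with a difference of -1.38 ± 0.23 (adjusted p = 7.27e-04). TRIB3, a pseudokinase, had responses of -0.35 and 2.13. Of 22 p53 targets, 11 were lower and 1 higher, with medians of -0.24 after crowding and 0.26 after ETV4 KD. Of 25 hypoxia-induced genes, 9 were higher and 4 lower, with medians of 0.31 after crowding and 0.12 after ETV4 KD. ADM of that list, the vasodilator adrenomedullin, went against the list's order of medians and was opposite at -1.29 and 2.43.

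Signalling and state lists held differences of both signs. Over all tested genes 15.1% were higher and 12.2% lower. In the pluripotency (8.0%), WNT (9.68%), Notch (5.88%) and interferon-stimulated (3.33%) lists the share lower was below the 12.2% over all genes. Of 25 pluripotency factors, 7 were higher and 2 lower, with medians of 0.11 after crowding and 0.10 after ETV4 KD. DPPA5, an RNA-binding protein of pluripotent cells, was at 1.73 and 1.5 FPKM in small, 4.00 and 3.69 in crowded, 2.49 and 2.46 in Ctrl and 0.900 and 0.565 in ETV4 KD, and its responses of 1.19 ± 0.24 and -1.73 ± 0.27 were opposite. Of 31 WNT pathway genes, 9 were higher and 3 lower (medians 0.20 after crowding and -0.15 after ETV4 KD), and FZD5, a receptor, fell in both (-0.67 and -0.69). Of 17 Notch genes, 7 were higher and 1 lower (medians 0.14 after crowding and -0.16 after ETV4 KD), and the ligand DLL3 had responses of 0.21 and -1.35. Of 30 interferon-stimulated genes, 13 were higher and 1 lower (medians 0.25 after crowding and -0.26 after ETV4 KD), and IFITM1, which blocks virus entry, was opposite at 203 and 201 FPKM in small, 337 and 374 in crowded, 374 and 400.4 in Ctrl and 268 and 229 in ETV4 KD. Its responses were 0.76 ± 0.07 and -0.64 ± 0.07. Of 16 FGF ligands and receptors, 2 were higher (12.5%) and 1 lower (6.25%), both below the shares over all genes. The medians of that list were 0.03 after crowding and -0.22 after ETV4 KD. Of 19 ETS factors 5 were higher and 3 lower.

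Neuronal genes did not form one block, while in lipid synthesis genes the difference was more often lower than higher. Of 32 neuronal genes, 3 were up in crowded and down in ETV4 KD (NPTX1, NRXN2 and NPTX2), 4 the reverse (TUBB3, VGF, MAP1A and SOX14, of which MAP1A and SOX14 were under 1 FPKM and named after their values were seen) and 1 up in both (NPAS1). NPTX2, a relative of NPTX1, had responses of 0.55 and -0.81, and its crowding response was 0.49 without small replicate 1 and 0.46 without crowded replicate 2, where its class was lost. The crowding response of MAP1A missed the threshold without crowded replicate 2 (adjusted p = 0.0630). SOX14 lost its class without small replicate 2 (crowding adjusted p = 0.121), crowded replicate 1 (crowding adjusted p = 0.0586), Ctrl replicate 1 (KD adjusted p = 0.0748), Ctrl replicate 2 (KD adjusted p = 0.141) or ETV4 KD replicate 1 (KD adjusted p = 0.159). TUBB3, the neuronal beta-tubulin, was at 107 and 115 FPKM in small, 80.1 and 65.0 in crowded, 47.8 and 56.8 in Ctrl and 89.0 and 107 in ETV4 KD, and with VGF, a neuropeptide precursor (-0.83 and 2.42), it was opposite to NPTX1 and NRXN2, at -0.67 and 0.92. Of 21 neuroectoderm factors, 4 were higher and 4 lower, and OTX2, a homeodomain factor of the forebrain and of pluripotent cells, was at 10.7 and 11.2 FPKM in small, 18.2 and 13.4 in crowded, 2.50 and 2.81 in Ctrl and 15.9 and 19.3 in ETV4 KD. Its responses of 0.47 ± 0.14 and 2.73 ± 0.15 differed by -2.26 ± 0.20 (adjusted p = 1.46e-05), with a crowding response short of the size threshold. The gene was called up in both without crowded replicate 2 (crowding response 0.68) and with cyclic loess (0.50). Of 30 genes of sterol and fatty acid synthesis, 15 were lower and 2 higher, with both medians below 0 (-0.57 after crowding and -0.20 after ETV4 KD), and SCD, the stearoyl-CoA desaturase, fell in both (-0.59 and -0.55). All 30 had a response below 0 to crowding and 22 had both responses below 0, beside 8846 and 3672 of the 17790 tested genes. Over the 20 other functional lists the median difference lay between -0.53 (caveolae, 8 genes) and 0.31 (BMP pathway, 22 genes).

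**Figure D4:**
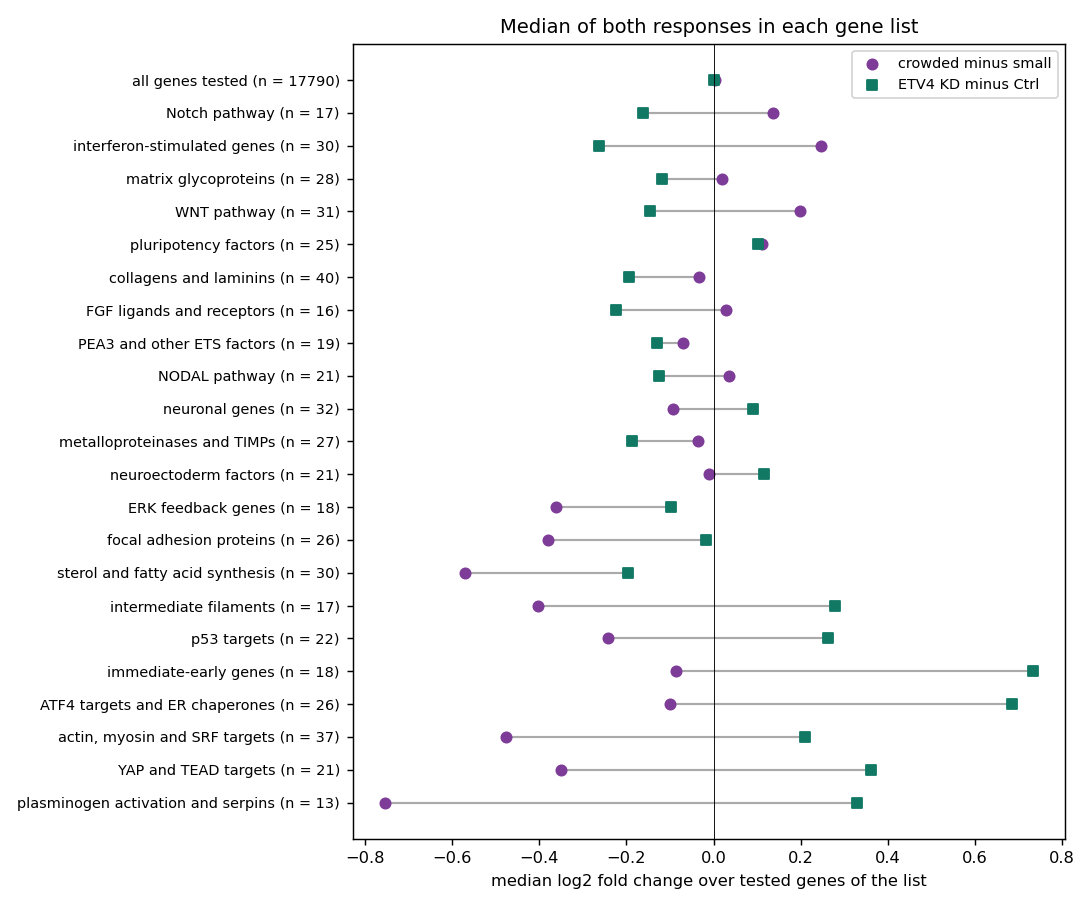
Median log2 fold change over the tested genes of each of 22 gene lists, for crowded over small (circles) and ETV4 KD over Ctrl (squares), with all tested genes at the top. The YAP, actin, intermediate filament, plasminogen, immediate-early, ATF4 and p53 lists have a crowding median below 0 and a KD median above 0. The interferon, WNT, Notch, FGF, NODAL and matrix glycoprotein lists have the reverse. The median difference of the neuronal and neuroectoderm lists changed sign in some settings, so no direction is given for them.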

How the data were processed

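RNA was extracted with TRIzol, libraries were made with the TruSeq stranded mRNA kit (poly-A selection) and sequenced as paired reads on a NovaSeq. Per the study's methods and the submitters' processing notes, the authors used Trimmomatic for trimming, HISAT2 2.1.0 for mapping to GRCh37 and StringTie 2.1.3b for known transcripts. Whether counting used strand is not given in the sources used here, so genes that overlap on either strand (ETV4, NPTX1, CCN2, FLNC, MEIOB, SERPINB3, SPP1, ATF5, SOX21 and DUSP6 among those named) may share reads. The authors deposited raw read counts and FPKM per gene and library in 1 table for each experiment, and genes without reads in the libraries of a table are not listed there. Their own fold changes and p-values in these tables were not used, and 16 further columns of per-library values were not used.

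The tables were joined by gene symbol. Genes were filtered with filterByExpr, library sizes and TMM factors were computed in each table alone, and 4 group means were fitted to the counts of all 8 libraries with edgeR 4.0.16 (glmQLFit with robust estimation, glmQLFTest) in R 4.3.3. Adjusted p-values are Benjamini-Hochberg values over all 17790 genes. The fit was tried on simulated counts in which 100 opposite and 100 alike genes, all well counted, had log2 responses of 1. It called all 100 opposite genes different, and 3.85% of its 104 calls were false. No other gene had a response there, and the compared groups had equal spread. The simulation therefore does not cover smaller responses, genes of few counts or groups of unequal spread. FPKM is printed for levels only, and SE is the difference divided by the square root of its F. With 2 libraries against 2 an exact permutation test cannot reach 0.05, so the p-values rest on the spread shared across genes and groups (common biological coefficient of variation 8.46%). Replicates of a group correlated at r = 0.991 to 0.994 and differed by more than counting noise in each group.

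The members and gene lists were chosen with earlier results of these data known. Genes were named by rule as the 10 (opposite) or 8 (alike) of each class with the largest smaller response, at 1 FPKM or more in a group and without overlap of groups, the 5 largest differences each way, list members in a class or up to 3 more with the largest called difference, and ETV4, ETV1, ETV5 and DUSP6. Not each of these is printed, 1 of them is not reported here, and 22 of 42 lists were picked for description after their values were seen. Promoters are the 250 bases before the annotated start in GENCODE lifted to GRCh37, found for 16513 genes by a unique symbol. Alternatives were DESeq2 1.42.0 (size factors, and its Wald test), TMM over all libraries, limma 3.58.1 (trend, voom with a spread per experiment), log2(FPKM + 0.5) and log2(FPKM + 1), other low-count filters, a threshold of 1, a replicate block, and leaving out each library.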

Additional observations from a re-analysis of the deposited data

How the results depend on the processing

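No call reversed. The counts of opposite and alike genes stayed within 1.5 times under the other count normalizations, tests and low-count filters and under the replicate block (577 opposite, 261 alike), but not on FPKM or at a larger threshold. In the order up in crowded and down in ETV4 KD, down and up, up in both and down in both, log2(FPKM + 0.5) gave 186, 100, 87 and 62, log2(FPKM + 1) gave 101, 60, 65 and 37 (with 1334 differences lower after crowding), log2(FPKM + 0.5) on all tested genes gave 198, 97, 87 and 61, and an absolute log2 value over 1 gave 88, 42, 39 and 14 (with 1440 differences higher and 701 lower). A pseudocount understates the change of low genes by construction, and the cause was not otherwise tested. A fit without 1 library assumes that the lone library of its group varies like the others. Without 1 library the first count ranged from 188 to 517 and the second from 110 to 228. Same-numbered libraries of the compared groups did not deviate together (correlations -0.029 and 0.079), so the replicate block treats a shared number as a pair without support from the labels, and the FLNC class was lost under it. Median list differences moved beyond the replicate spread with log2(FPKM + 0.5), where they were focal adhesion proteins -0.367, plasminogen activation and serpins -0.713, NODAL pathway 0.155, ERK feedback genes -0.153, PEA3 and other ETS factors 0.187, FGF ligands and receptors 0.340, pluripotency factors 0.0915 and collagens and laminins 0.233. With log2(FPKM + 1) they were focal adhesion proteins -0.355, intermediate filaments -0.381, plasminogen activation and serpins -0.624, immediate-early genes -0.522, NODAL pathway 0.139, ERK feedback genes -0.145, PEA3 and other ETS factors 0.178, FGF ligands and receptors 0.294, Notch pathway 0.351, pluripotency factors 0.0913, collagens and laminins 0.230 and matrix glycoproteins 0.262. With log2(FPKM + 0.5) on all tested genes they were focal adhesion proteins -0.367, plasminogen activation and serpins -0.729, NODAL pathway 0.155, ERK feedback genes -0.153, PEA3 and other ETS factors 0.197, Notch pathway 0.366, pluripotency factors 0.0915 and collagens and laminins 0.201. With cyclic loess, chosen after seeing the data, they were actin, myosin and SRF -0.620, YAP and TEAD targets -0.683, ERK feedback genes -0.219, PEA3 and other ETS factors 0.174, WNT pathway 0.371 and Notch pathway 0.425, and with at least 10 counts in each library pluripotency factors 0.0366. Without 1 library the medians were PEA3 and other ETS factors 0.0647 to 0.173, WNT pathway 0.247 to 0.423, FGF ligands and receptors 0.0965 to 0.262, neuronal genes -0.150 to 0.154, plasminogen activation and serpins -0.886 to -0.805, NODAL pathway 0.0181 to 0.218, sterol and fatty acid synthesis -0.624 to -0.337, interferon-stimulated genes 0.401 to 0.496, YAP and TEAD targets -0.856 to -0.648, neuroectoderm factors -0.286 to 0.0195 and ATF4 targets and ER chaperones -0.852 to -0.568. The sign of the median changed in some settings for metalloproteinases and TIMPs (10 settings), neuronal genes (4) and neuroectoderm factors (1), so no direction is given for these lists. The replicate spread used here is the SD over the 16 ways to take 1 library per group, by which 53 of 440 list values moved. It replaced a first definition, from medians of replicate gaps, after that one's outcome of 79 of 440 had been seen. Differences in genes of few counts are limited by depth and by 2 libraries a group.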
